A study of Mus musculus with 2 samples.

Results

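The sarcomere and muscle excitation genes are 39 genes that build the contractile unit of striated muscle, its anchoring lattice and the machinery that couples a nerve signal to contraction. Members were the genes whose symbols equal a fixed list of names, and all 39 were found among the 22028 protein-coding genes and 55536 genes in all of the deposited tables. They were measured in the embryonic facial prominence, the tissue of the developing face, of B6NCrl mouse embryos of mixed sex at 12.5 days. RNA-seq of polyadenylated RNA, primed with oligo-dT, was made from 2 biological replicates, replicate 2 being a pool of 88 embryos and replicate 1 a pool of 120. Both belong to 1 group with no named genotype or treatment, so the replicates are compared with each other and no condition is. Each library began with 10 ng of RNA, and whole tissue was used, so in these bulk samples fewer muscle cells and less RNA per muscle cell cannot be told apart.

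A sarcomere slides thin filaments of actin, tropomyosin and troponin past thick filaments of myosin. Acetylcholine opens receptors on the muscle membrane, calcium leaves internal stores through the ryanodine receptor, and its binding to troponin exposes actin to myosin. Most of these proteins come in embryonic, slow, fast and cardiac forms made from separate genes, and embryonic skeletal muscle is known to use several forms that the adult keeps for the heart or for slow fibres. The muscles of the face and jaw arise from head mesoderm and form fibres among the crest-derived tissue of the face.

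The stretches of DNA around the start sites of muscle genes are known for E-boxes, the sites of the myogenic regulators, and for CArG boxes, the sites of serum response factor. RefSeq promoter windows on GRCm38.p6, from 250 bases before to 50 after a start site, were matched by symbol for 32 of the 39 members. Shown first are the windows of both sarcomeric actin genes, since each holds a CArG box, of the light chain gene Myl1, and of both receptor genes Chrna1 and Chrng, which hold several E-boxes. Capitals mark a CArG box in Actc1 (chr2:114052826-114053125, minus strand), a CArG box and CAGCTG in Acta1 (chr8:123894726-123895025, minus strand), and CAGCTG in Myl1 (chr1:66945007-66945306, minus strand) and Chrng (chr1:87205561-87205860, plus strand). In Chrna1 (chr2:73580289-73580588, minus strand) they mark CAGCTG and the reverse complement of CACCTG. The RefSeq start used for Actc1, Myl1 and Chrng differs from the outermost GENCODE M21 start, and these windows lie inside the M21 gene spans.
RefSeq window of Actc1: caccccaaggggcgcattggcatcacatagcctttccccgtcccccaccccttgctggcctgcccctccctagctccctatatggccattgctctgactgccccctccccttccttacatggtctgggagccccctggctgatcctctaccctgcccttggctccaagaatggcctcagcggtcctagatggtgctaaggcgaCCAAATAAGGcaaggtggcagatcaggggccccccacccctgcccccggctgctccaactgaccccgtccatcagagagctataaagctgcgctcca
RefSeq window of Acta1: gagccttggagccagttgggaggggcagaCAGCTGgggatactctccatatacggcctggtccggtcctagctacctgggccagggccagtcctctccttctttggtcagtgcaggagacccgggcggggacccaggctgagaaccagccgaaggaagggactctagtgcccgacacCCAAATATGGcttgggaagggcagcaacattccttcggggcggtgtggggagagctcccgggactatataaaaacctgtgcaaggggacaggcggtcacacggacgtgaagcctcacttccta
RefSeq window of Myl1: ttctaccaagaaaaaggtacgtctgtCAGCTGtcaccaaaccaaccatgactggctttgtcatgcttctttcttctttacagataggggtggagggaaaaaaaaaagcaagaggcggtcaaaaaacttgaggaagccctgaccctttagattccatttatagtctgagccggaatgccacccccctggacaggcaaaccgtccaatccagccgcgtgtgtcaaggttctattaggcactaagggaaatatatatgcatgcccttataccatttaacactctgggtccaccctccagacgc
RefSeq window of Chrna1: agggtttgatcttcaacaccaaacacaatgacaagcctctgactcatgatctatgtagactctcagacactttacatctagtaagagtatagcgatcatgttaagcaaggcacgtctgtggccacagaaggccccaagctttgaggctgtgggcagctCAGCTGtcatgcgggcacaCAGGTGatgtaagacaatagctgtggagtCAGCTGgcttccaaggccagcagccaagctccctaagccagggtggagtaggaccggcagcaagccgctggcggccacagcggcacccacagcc
RefSeq window of Chrng: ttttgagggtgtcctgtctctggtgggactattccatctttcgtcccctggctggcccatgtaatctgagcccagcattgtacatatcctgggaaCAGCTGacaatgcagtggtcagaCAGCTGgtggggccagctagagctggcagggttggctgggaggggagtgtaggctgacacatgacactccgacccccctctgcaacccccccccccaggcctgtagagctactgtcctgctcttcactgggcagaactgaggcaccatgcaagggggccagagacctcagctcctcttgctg
Both strands were searched, and no 2 marked motifs overlapped. CAGCTG was found in 14 of the 32 members (43.8%), against 18.3% of 27025 genes with a window. Either E-box, CAGCTG or CACCTG, was found in 20 members (62.5%), against 35.9% of all genes. A CArG box was held by 5 members, Actc1, Acta1, Myl3, Ldb3 and Myom1 (15.6%), against 1.81% of all genes. A MEF2 site was held by 4, namely Ttn, Myh8, Klhl41 and Casq2 (12.5%), against 3.70% of all genes. CATTCC, the core of the TEAD site, was in 11 members (34.4%), against 16.6%. These matches describe the letters of the windows and were not tested as sites.

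Of the 39 members, 33 had a level of at least 1 TPM, a unit that corrects for length and sums to the same total in each library, in both libraries. Over all protein-coding genes that share was 60.7%. The levels spanned more than 3 orders of magnitude. Tpm1, Actc1 and Tpm2 had a mean above 100 TPM, 14 members lay between 10 and 100 TPM, 20 between 1 and 10 TPM, and Cav3 and Ckm below 1 TPM. The median level of the 39 members was 7.19 TPM, beside 20.95 TPM over protein-coding genes with a mean of at least 1 TPM. Summed over members, the level was 1685 TPM in replicate 2 and 1385 TPM in replicate 1. Tpm1 alone carried 37.2% of that sum in replicate 2 and 38.2% in replicate 1. Levels are given without a test, since with 2 libraries the smallest 2-sided p of an exact sign-flip permutation test is 0.5. Intervals of count ratios below are exact 95% intervals that cover counting error only.

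**Figure D1:**
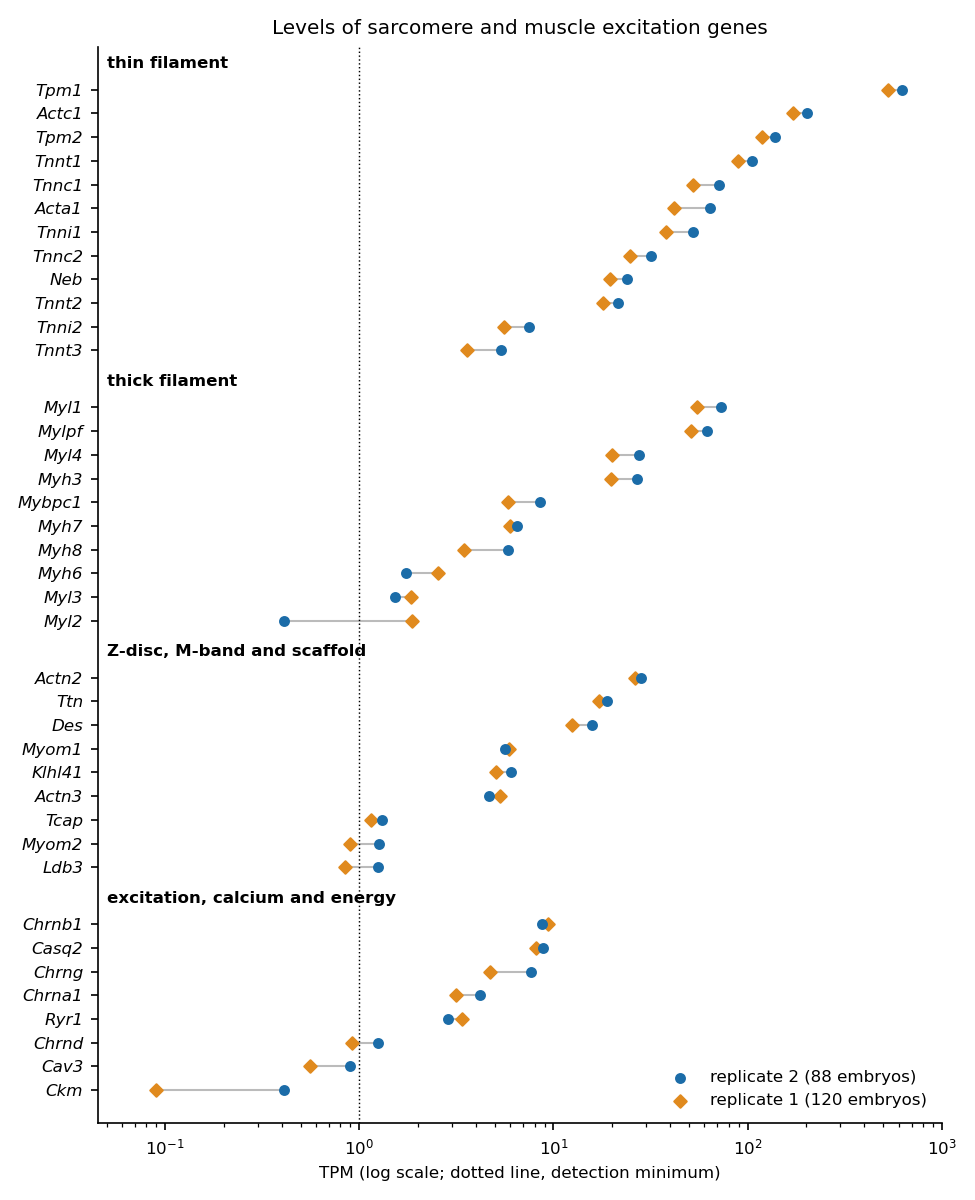
Levels of the 39 members in TPM on a log axis, grouped by role, with replicate 2 as circles and replicate 1 as diamonds, and a dotted line at 1 TPM. The thin filament genes all lie above 1 TPM in both replicates, while Myl2, Myom2, Ldb3, Chrnd, Cav3 and Ckm fall below it in at least 1 replicate.

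The 12 thin filament genes were the highest role group, with a median of 49.1 TPM, and all 12 were detected. Actc1, the cardiac alpha-actin (chromosome 2, 114047282 to 114053548), had 204 TPM in replicate 2 and 171 TPM in replicate 1. Acta1, the skeletal alpha-actin of adult fibres (chromosome 8, 123891769 to 123894751), had 64.5 TPM in replicate 2 and 41.7 in replicate 1. The cardiac form thus stood 3.16 times above the skeletal form in replicate 2 and 4.10 times in replicate 1, and took 78.2% ± 3.14 of the sarcomeric actin (SD, n = 2). Actb, the cytoplasmic actin of all cells, stood 56.6 times above Actc1 in replicate 2 and 64.1 times in replicate 1 in release M21. That distance depends on the annotation release. Actb had 11515 TPM in replicate 2 and 10966 TPM in replicate 1 in M21, against 5687 and 5575 TPM in the older release M4. Actc1 had 215 and 181 TPM in M4, so the ratio of Actb to Actc1 was smaller there.

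Tropomyosin lies along actin and blocks myosin until calcium arrives, and Tpm1 and Tpm2 serve both muscle and other cells through alternative exons. Tpm1 (chromosome 9, 67022590 to 67049406) had 626 TPM in replicate 2 and 529 in replicate 1, the highest level among the members. Tpm2 (chromosome 4, 43514711 to 43523765) had 138 TPM in replicate 2 and 119 TPM in replicate 1. In each gene, most transcripts by level end their coding sequence in an upstream exon, known from striated muscle, or in a downstream exon, known from smooth muscle and other cells. The coding parts of these exons from the GENCODE M21 transcripts on GRCm38, all on the minus strand, are shown because they tell the transcript classes apart, with capitals at bases that differ between both exons of a gene. They lie at chr9:67029663-67029742 and chr9:67023362-67023441 for Tpm1 and at chr4:43515924-43516003 and chr4:43514782-43514861 for Tpm2.
Tpm1 upstream exon: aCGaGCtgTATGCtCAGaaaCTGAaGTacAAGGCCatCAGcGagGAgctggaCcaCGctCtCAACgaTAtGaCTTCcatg
Tpm1 downstream exon: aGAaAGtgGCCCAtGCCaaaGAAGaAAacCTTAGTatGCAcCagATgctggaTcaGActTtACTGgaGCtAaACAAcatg
Tpm2 upstream exon: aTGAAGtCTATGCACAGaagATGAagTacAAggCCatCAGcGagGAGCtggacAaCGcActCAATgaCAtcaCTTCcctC
Tpm2 downstream exon: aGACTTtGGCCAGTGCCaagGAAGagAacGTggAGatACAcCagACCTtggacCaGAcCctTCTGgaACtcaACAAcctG
Over 80 bases, the upstream exon of Tpm1 matched that of Tpm2 at 82.5% of positions and its own downstream partner at 43.8%. The downstream exons of both genes matched at 71.2%, and the exon pair of Tpm2 at 41.2%. Tpm1 transcripts ending in the upstream, striated exon summed to 187 TPM in replicate 2 and 159 TPM in replicate 1, which was 29.8% and 30.1% of the gene in those libraries. Tpm1 transcripts with the downstream exon summed to 361 TPM in replicate 2 and 307 TPM in replicate 1, or 57.7% and 58.1%. For Tpm2 the upstream exon carried 49.4 TPM (35.7%) in replicate 2 and 40.4 TPM (33.9%) in replicate 1. Its downstream exon carried 86.7 TPM (62.7%) in replicate 2 and 78.3 TPM (65.8%) in replicate 1. In both genes and both libraries the downstream form was thus the larger. Tpm1 transcripts that end in either of 2 other exons held 5.74% and 0.864% of the gene in replicate 2 and 5.77% and 0.753% in replicate 1. Long Tpm1 transcripts of 284 codons made up 76.4% of the gene in replicate 2 and 75.7% in replicate 1, while short ones, known from non-muscle cells, made up 10.5% and 12.2% at 248 codons and a further 5.05% and 5.77% at 245 codons.

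Troponin C binds calcium, troponin I inhibits and troponin T ties the complex to tropomyosin, and in each family the slow gene led. Tnnc1, the slow and cardiac troponin C, had 70.9 TPM in replicate 2 and 52.7 TPM in replicate 1, and the fast Tnnc2 had 31.7 and 24.9 TPM in those libraries. Tnni1, the slow troponin I, had 52.2 TPM in replicate 2 and 38.1 TPM in replicate 1, and the fast Tnni2 had 7.48 and 5.56 TPM. Tnnt1, the slow troponin T, had 106 TPM in replicate 2 and 89.2 TPM in replicate 1, beside 21.6 and 18.1 TPM for the cardiac Tnnt2 and 5.36 and 3.61 TPM for the fast Tnnt3. The slow over fast ratio therefore differed between subunits in both libraries. It was 2.24 in replicate 2 and 2.12 in replicate 1 for troponin C, 6.98 and 6.86 for troponin I, and 19.8 and 24.7 for troponin T. Tnni3, the cardiac troponin I and no member, had 3.44 TPM in replicate 2 and 3.59 TPM in replicate 1. Of the Tnnc2 exon bases, 592 of 800 are shared with Ube2c, a mitotic gene on the other strand whose level was 381 TPM in replicate 2 against 371 TPM in replicate 1. Whether the counting used strand is not given in the sources, and without it reads of the pair cannot be told apart. Neb, the giant nebulin that spans the thin filament, had 24.1 TPM in replicate 2 and 19.5 TPM in replicate 1.

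Among the 10 thick filament genes, 9 were detected, and the embryonic and fast forms led. Myh3, the embryonic myosin heavy chain (chromosome 11, 67078300 to 67102291), had 27.1 TPM in replicate 2 and 19.8 TPM in replicate 1. Myh8, the perinatal heavy chain, had 5.81 TPM in replicate 2 and 3.47 in replicate 1. The gene lies 174.8 kb from Myh3 on the same strand, with 3 protein-coding genes between them. Myh7, the slow and cardiac beta heavy chain, had 6.49 TPM in replicate 2 and 5.96 TPM in replicate 1, and Myh6, the cardiac alpha heavy chain 3.76 kb from it, had 1.74 and 2.54 TPM. Of the heavy chain TPM of these members, Myh3 held 64.1% ± 2.53, Myh7 17.3% ± 2.12, Myh8 12.5% ± 2.26 and Myh6 6.12% ± 2.67 (SD, n = 2). The adult fast heavy chains, no members, were near 0: Myh1 had 0.38 TPM in replicate 2 and 0.32 TPM in replicate 1, Myh4 0.19 and 0.04 TPM, and Myh2 0.05 and 0.01 TPM.

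The Myh6 value rests mostly on a short, incomplete transcript. Myh6-207, of 542 bases, took 74.1% of the gene in replicate 2 and 80.5% in replicate 1. When counts were divided by the length of each gene's longest coding transcript instead, Myh6 held 1.43% of the heavy chain sum in replicate 2 and 2.34% in replicate 1, and Myh3 held 71.8% and 72.4%. The order of Myh3 ahead of all others held under that setting, while Myh8 (15.2% and 12.6%) and Myh7 (11.7% and 12.7%) lay close together.

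Light chains stabilise and tune the myosin head. Of the essential light chains, Myl1, the fast skeletal form, had 73.4 TPM in replicate 2 and 54.6 TPM in replicate 1. Myl4, the embryonic and atrial form, had 27.7 and 20.1 TPM, and Myl3, the slow and ventricular form, 1.52 and 1.85 TPM. The shares were 71.4% ± 0.149 for Myl1, 26.6% ± 0.511 for Myl4 and 1.95% ± 0.660 for Myl3 (SD, n = 2). Of the regulatory light chains, Mylpf, the fast skeletal form, had 62.0 TPM in replicate 2 and 51.2 TPM in replicate 1. Myl2, the slow and ventricular form, had 0.41 TPM from 5 counts in replicate 2 and 1.87 TPM from 20 counts in replicate 1, so Mylpf held 97.9% ± 2.03 of the pair. The light chains were thus led by fast genes and the troponins by slow genes in both libraries. Mybpc1, the slow myosin-binding protein C, had 8.51 TPM in replicate 2 and 5.86 TPM in replicate 1.

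**Figure D2:**
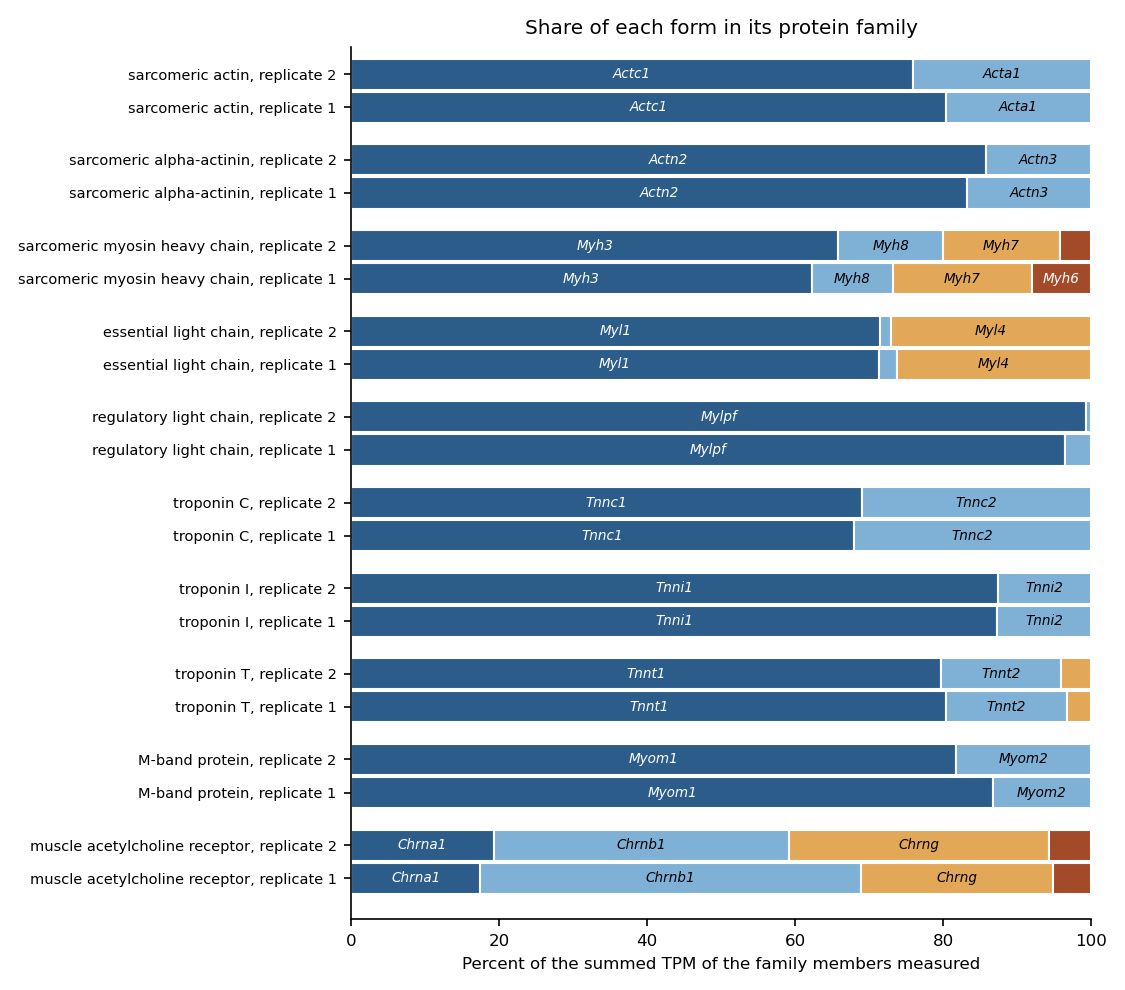
Share of each form, or for the acetylcholine receptor each subunit, in the summed TPM of the members of its protein family, with replicate 2 above replicate 1 in each pair of bars. The leading gene is the same in both replicates in every family drawn, from Mylpf at 99.3% and 96.5% to Chrnb1 at 39.9% and 51.5%. Chrnb1 is a subunit used together with the others and not an alternative form.

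The 9 genes of the Z-disc, M-band and scaffold had a median of 5.54 TPM, and 7 were detected. Actn2, the alpha-actinin that crosslinks actin at the Z-disc, had 28.2 TPM in replicate 2 and 26.4 TPM in replicate 1. Actn3, the fast-fibre alpha-actinin, had 4.68 and 5.32 TPM, so Actn2 held 84.5% ± 1.81 of the pair (SD, n = 2). Ttn, the titin spring that spans Z-disc to M-band, had 18.8 TPM in replicate 2 and 17.2 TPM in replicate 1. Des, the desmin filament that links neighbouring Z-discs, had 15.7 TPM in replicate 2 and 12.5 TPM in replicate 1. Klhl41, a nebulin-stabilising adaptor, had 6.04 and 5.04 TPM. Myom1, the myomesin that ties thick filaments at the M-band, had 5.64 TPM in replicate 2 and 5.89 TPM in replicate 1, and Myom2 had 1.26 and 0.90 TPM. The Z-disc genes Tcap (1.31 and 1.15 TPM) and Ldb3 (1.25 and 0.84 TPM) were near the minimum for detection in both libraries. Myom1 shares 207 exon bases with Myl12a, a non-muscle light chain gene on the other strand (449 TPM in replicate 2, 445 TPM in replicate 1), and Myl3 shares 95 with Pth1r at 89.7 and 92.0 TPM. If the counting did not use strand, which the sources do not say, reads of those shared bases cannot be told apart either.

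The 8 genes of excitation, calcium and energy were the lowest group, with a median of 3.40 TPM, and 5 were detected. The fetal acetylcholine receptor is built of alpha, beta, gamma and delta subunits, and the adult one has epsilon in place of gamma. Chrna1, the alpha subunit, had 4.21 TPM in replicate 2 and 3.16 TPM in replicate 1, and Chrnb1, the beta subunit, 8.71 and 9.33 TPM. Noncoding transcripts held 29.8% of Chrnb1 in replicate 2 and 42.8% in replicate 1. Chrng, the fetal gamma subunit (chromosome 1, 87204657 to 87212694), had 7.68 TPM in replicate 2 and 4.72 TPM in replicate 1. Chrnd, the delta subunit 4.59 kb from it, had 1.25 and 0.92 TPM. Chrne, the adult epsilon subunit and no member, had 1 count in replicate 2 and 0 in replicate 1, where a count of 0 allows up to 3. Chrng itself had 318 counts in replicate 2 and 182 in replicate 1, so the fetal subunit was the one measured in both pools.

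Ryr1, the calcium release channel of skeletal muscle, had 2.87 TPM in replicate 2 and 3.37 TPM in replicate 1. Casq2, the calcium-storing calsequestrin of cardiac and slow muscle, had 8.87 and 8.12 TPM. Cav3, the muscle caveolin of the surface membrane, had 0.90 TPM from 25 counts in replicate 2 and 0.56 TPM from 11 counts in replicate 1. Ckm, the muscle creatine kinase that buffers ATP and is known as a late gene of fibre maturation, had 0.41 TPM from 11 counts in replicate 2 and 0.09 TPM from 1 count in replicate 1. Ckm was the lowest member in both libraries, level with Myl2 in replicate 2.

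Because TPM is read through transcripts, the make-up of each gene was examined in the deposited transcript percents. In 12 of the 39 members the leading transcript held at least 90% of the gene in both libraries, and in 5, Tpm1, Tnnt1, Tnnt3, Myom1 and Ryr1, it held under 50% in both. The median leading share was 70.2% in replicate 2 and 65.8% in replicate 1. The same shares over all genes were not computed, so these counts and medians describe the members alone. Troponin T genes are spliced into many forms. For Tnnt1 the leading transcript, Tnnt1-206 of 250 codons, held 36.5% in replicate 2 and 30.5% in replicate 1, ahead of Tnnt1-201 of 261 codons at 27.1% and 25.4%. In Tnnt2 the leading form, Tnnt2-207 of 302 codons, held 60.9% and 54.4%, and Tnnt2-204, which is 1 codon shorter, 23.4% and 24.3%. Tnnt3, with 27 annotated transcripts in all, had only 117 counts in replicate 2 and 48 in replicate 1 to divide between them. In Myh7 a retained-intron transcript of 595 bases, Myh7-206, took 33.9% in both libraries, beside 65.7% in replicate 2 and 55.7% in replicate 1 for the full coding transcript of 1935 codons.

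Myl1 is read from alternative first exons into a long and a short light chain. The short one, Myl1-202 of 150 codons, had 40.8 TPM in replicate 2 and 34.1 in replicate 1. The long one, Myl1-201 of 188 codons, had 30.1 TPM in replicate 2 and 17.9 TPM in replicate 1, and so held a larger share in replicate 2, at 41.1% against 32.7% in replicate 1.

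**Figure D3:**
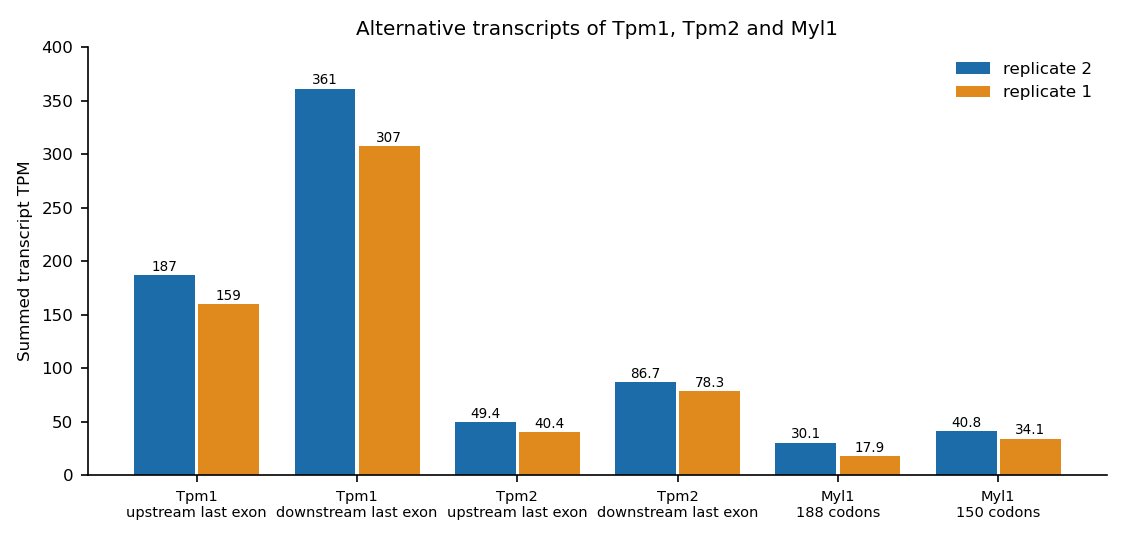
Summed TPM of transcript classes of Tpm1, Tpm2 and Myl1, with replicate 2 left of replicate 1 in each pair of bars, on a linear axis from 0. The downstream last exon exceeds the upstream one in both tropomyosin genes, and the 150-codon Myl1 transcript exceeds the 188-codon one, in both replicates.

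In 5 members more than 50% of the TPM sat on transcripts that are annotated as incomplete or without a coding sequence in both libraries. These were Neb at a mean of 91.2%, Ttn at 88.5%, Myh6 at 77.2%, Myom1 at 70.1% and Myl3 at 58.1%. How many of all genes pass that mark was not computed, so the count is no trait particular to the members. Neb-204, a processed transcript of 1000 bases, held 51.8% of Neb in replicate 2 and 62.4% in replicate 1. Ttn-215, an incomplete coding transcript of 2159 bases, held 52.7% of Ttn in replicate 2 and 45.9% in replicate 1, while the longest coding transcript of Ttn has 106824 bases. Dividing counts by the longest coding transcript gave 0.949 for Ttn, as counts per kilobase scaled by library size, in replicate 2 and 0.823 in replicate 1. On the same scale Neb had 1.97 and 1.52, and Actc1 had 134 and 113. The levels of the giant genes therefore depend on which transcripts the reads were assigned to, by far more than they differ between replicates.

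Set against each other, the replicates differed in most members in the same direction. A log2 ratio of (TPM + 1), replicate 2 over replicate 1, of at least 0.25 was found in 18 of the 37 members with a mean of at least 1 TPM, against 5.89% of 13585 protein-coding genes. A ratio of -0.25 or less was found in 2 members, Myh6 and Myl2, against 6.76% of genes, and 30 of 37 lay above 0, against 50.2%. The median ratio of the 37 members was 0.25, beside 0.00098 over all genes tested. That median sits at the threshold: Actc1, Tnnt1, Tnnt2 and Tpm1 lay just below it, at 0.2496, 0.2461, 0.2453 and 0.2438, and Myom2 at 0.2503 and Mylpf at 0.27 just above. The scaled count ratio, of expected counts each divided by the summed counts of genes, does not use that threshold, and its interval lay above 1 in 25 of 37 members, against 14.7% of genes. It lay below 1 in 1 member, Myl2, against 15.5%, and held 1 in 11. Scaling on the spike-in RNAs left 11 members at 0.25 or more, against 2.64% of genes, and 5 at -0.25 or less, against 17.4%, and moved the median of all genes to -0.13 and that of the members to 0.14. These are differences between 1 library and 1 library, so they describe the pools and not a condition. The threshold of 0.25 was chosen with earlier results of these data known.

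**Figure D4:**
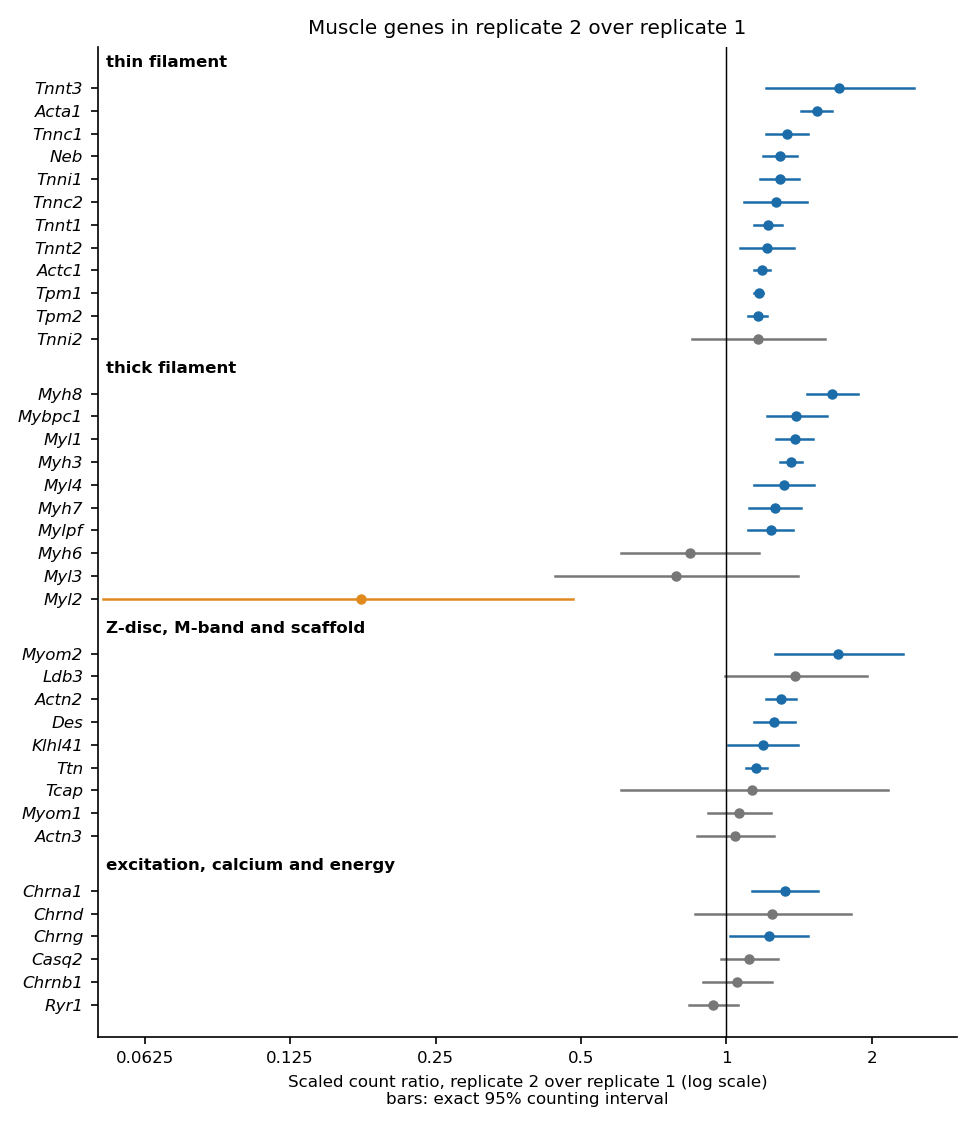
Scaled count ratio of replicate 2 over replicate 1 on a log axis for the 37 members with a mean of at least 1 TPM, with exact 95% counting intervals, grouped by role. Intervals above 1 (25 members) are blue, the 1 below 1 (Myl2) is orange and those that hold 1 (11 members) are grey.

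By role, 7 of 12 thin filament genes, 6 of 10 thick filament genes, 3 of 9 Z-disc, M-band and scaffold genes and 2 of 6 excitation, calcium and energy genes passed 0.25, with median log2 ratios of 0.32, 0.34, 0.12 and 0.17. With TMM scaling of counts these numbers were 9, 7, 4 and 2, and with spike-in scaling 5, 5, 0 and 1. Acta1 had the highest log2 ratio of the 37, at 0.62, from 2266 counts in replicate 2 and 1032 in replicate 1, a scaled count ratio of 1.54 (1.43 to 1.66). Myh8 came next at 0.61, with a count ratio of 1.65 (1.47 to 1.87), ahead of Myh3 at 0.44 with 1.36 (1.29 to 1.43). Tnnt3, the fast troponin T, had 0.46 and a count ratio of 1.71 (1.21 to 2.44). Among forms, both embryonic or perinatal genes and 5 of 6 fast genes passed 0.25, as did 3 of 7 slow or cardiac genes and 1 of 4 cardiac or embryonic genes, beside 5.89% of all genes. With TMM scaling of counts, under which 5.23% of all genes passed, the numbers were 2 of 2, 4 of 6, 5 of 7 and 3 of 4, so the contrast between fast and the other forms depends on the scale. Actn3 was the fast gene that did not pass in TPM, at -0.15, with a count ratio of 1.04 (0.868 to 1.25).

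For a few members TPM and counts gave different pictures. Chrng had a log2 TPM ratio of 0.60, but its count ratio was 1.22 (1.02 to 1.48). Incomplete or noncoding transcripts held 51.0% of Chrng in replicate 2 and 29.5% in replicate 1. Actn2 had a log2 TPM ratio of only 0.09 and a count ratio of 1.30 (1.21 to 1.39), and a noncoding transcript of 501 bases, Actn2-205, had 0 TPM in replicate 2 and 5.33 TPM in replicate 1. Myh6 had -0.37 in TPM and a count ratio of 0.839 (0.605 to 1.17), which holds 1. Myl2 was lower in replicate 2 on both scales, at -1.03 and a count ratio of 0.175 (0.0514 to 0.481).

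Other muscle genes, listed by function and not members, were read the same way. Over all protein-coding genes 60.7% were detected. Of those with a mean of at least 1 TPM, 5.89% lay at 0.25 or more and 6.76% at -0.25 or less. Of the 32 other sarcomere genes 15 were detected, and of the 16 with a mean of at least 1 TPM 6 lay at 0.25 or more and 1 at -0.25 or less. Csrp3, a Z-disc LIM protein, had 4.68 TPM in replicate 2 and 2.16 TPM in replicate 1, and Mybph, a myosin-binding protein, had 22.1 and 15.6 TPM. Of the 21 other excitation and calcium genes 11 were detected and 4 of 13 passed, and Atp2a1, the fast calcium pump, had 20.9 and 17.5 TPM. The neuromuscular junction list had 2 of 6 that passed, the energy list 3 of 7 and the fusion list 1 of 3, each with 0 at -0.25 or less. Among myogenic regulators 2 of 5 passed, Myf5 (7.09 TPM in replicate 2, 5.71 TPM in replicate 1) and Myog (59.5 and 49.4 TPM). Myod1 had 22.6 and 21.5 TPM and Pax7 1.05 and 1.10 TPM. Median log2 ratios were 0.15, 0.12, 0.01, 0.09, 0.19 and 0.07 for the sarcomere, excitation, junction, energy, fusion and regulator lists.

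Markers of other cell types that share or neighbour these genes also differed between the pools. The shares over all protein-coding genes were again 60.7% detected, 5.89% at 0.25 or more and 6.76% at -0.25 or less. Of 9 cardiomyocyte markers 4 were detected, and their summed level was 10.4 TPM in replicate 2 and 18.7 TPM in replicate 1. Nppa, the atrial natriuretic peptide, had 0.50 TPM from 10 counts in replicate 2 and 8.29 TPM from 117 counts in replicate 1, and Myl7, the atrial light chain, had 1.56 and 2.54 TPM. Without Nppa the direction of the list was mixed, since Nkx2-5 had 2.41 and 2.02 TPM and Gata4 0.12 and 0.15 TPM. Nppa and Myl7 were lower in TPM in replicate 2, as were Myl2 and Myh6, the members at -0.25 or less, and the part of heart cells in those ratios was not tested. Myl7 had only 20 counts in replicate 2 and 23 in replicate 1. Its count ratio of 0.609 (0.317 to 1.16) holds 1, as does that of Myh6. Tbx20, of the same list but with a mean of 0.355 TPM, went the other way, at a count ratio of 3.34 (1.96 to 6.01). Smooth muscle markers were detected in 6 of 8, and all 6 log2 TPM ratios were above 0, at a median of 0.18. Cnn1 and Actg2 lay at 0.25 or more in TPM. The count ratio of Actg2 was 1.53 (1.08 to 2.18), but that of Cnn1 was 0.909 (0.611 to 1.36), which holds 1. With release M4, Cnn1 was lower in replicate 2, at 1.03 against 1.19 TPM. The 8 markers summed to 154 TPM in replicate 2 against 139 TPM in replicate 1. Acta2 led at 89.4 and 81.4 TPM, while Myh11, the smooth muscle myosin, had 0.43 and 0.48 TPM. Neuron markers were lower in replicate 2, with 9 of 13 at -0.25 or less and a summed level of 517 TPM against 667 TPM in replicate 1. Chondrocyte markers had 3 of 8 at -0.25 or less, and 677 TPM in replicate 2 against 750 TPM in replicate 1. The part of these cell types in the ratios of the members was not tested. The 11 non-muscle paralogs of sarcomere proteins, among them Actb, Myh9 and Tpm4, had 0 beyond 0.25 in either direction.

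**Figure D5:**
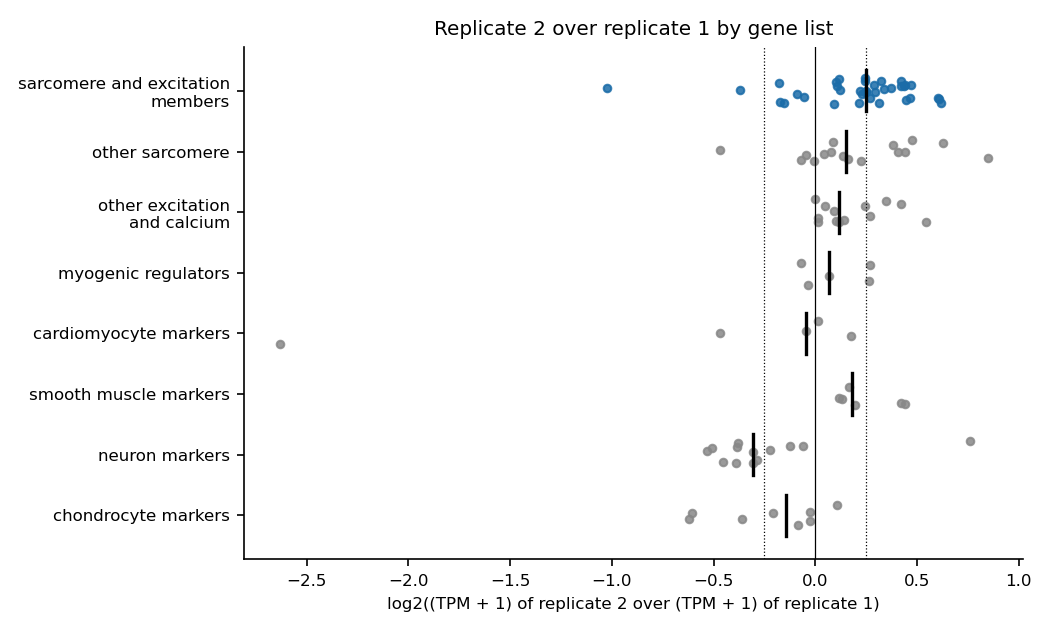
Log2 ratio of (TPM + 1), replicate 2 over replicate 1, for genes with a mean of at least 1 TPM in the members and in other lists, with a black bar at each median and dotted lines at -0.25 and 0.25. The members have a median of 0.25, the neuron markers -0.31 and the chondrocyte markers -0.15, and the cardiomyocyte marker Nppa lies at -2.63.

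The older annotation release, M4, held all 39 members. The (TPM + 1) of M21 over that of M4 was at least 1.5 in both libraries for Myh6 and Myom1, against 4.21% of 13480 genes, and lower by as much for 0, against 0.838%. Myh6 had 1.74 TPM in replicate 2 and 2.54 TPM in replicate 1 in M21, against 0.51 and 0.58 TPM in M4, and Myom1 had 5.64 and 5.89 TPM against 2.82 and 2.43 TPM. Ryr1 lay just outside with the pseudocount, at log2 0.55 in replicate 2 and 0.68 in replicate 1, and had 2.87 and 3.37 TPM in M21 against 1.64 and 1.73 TPM in M4. Expected counts were not whole in 9 of 39 members, among them Myh3, Myh8, Myh7, Myh6 and Ryr1, against 33.4% of genes, so reads of those genes had been divided between matching features and their values are uncertain to that extent.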

How the data were processed

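The measurements are poly(A) RNA-seq tables of 2 libraries of 1 group. Build mm10 and GENCODE releases M21 and M4 are named in text deposited with the tables. The aligner, quantifier and strandedness are not given in the sources here. Per the file headers, the authors deposited an expected count, TPM (maximum-likelihood and posterior mean) and FPKM per gene, and the percent of a gene that each transcript carries. Levels and ratios use the deposited TPM of M21, ratios as log2 with a pseudocount of 1 among genes with a mean TPM of at least 1, which understates low genes. Expected counts, rounded to whole numbers, gave count ratios scaled by the summed counts of genes (39819334 in replicate 2 and 27887968 in replicate 1), with exact conditional (Clopper-Pearson) 95% intervals. Such intervals cover counting error only, because they treat each read as independent and hold no variation between pools. Reads were amplified and carry no molecular identifiers, so even counting error can be understated. Spike-ins took 3.10% of counts in replicate 2 and 2.85% in replicate 1, and rows naming no gene 0.000114% and 0.000139%; both stayed out of library sizes.

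The members and the other gene lists were chosen with earlier results of these data known, and the higher level of muscle genes in replicate 2 was among them. All members, all listed genes and each member's leading and second transcripts could be named; genes whose exons overlap a member's were named after their values were seen. Posterior mean TPM, FPKM, M4, pseudocounts, filters and scaling by spike-ins, TMM (edgeR 4.0.16) or size factors (DESeq2 1.42.0, R 4.3.3) were alternatives. Other steps used pandas 2.3.3, numpy 2.4.6, scipy 1.17.1 and matplotlib 3.10.9. The ratio step was run on simulated counts that held counting error only. That run checked the calculation and says nothing about variation between pools. Promoter windows are RefSeq's and exons GENCODE M21's.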

Additional observations from a re-analysis of the deposited data

How the results depend on the processing

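No paired analysis was possible because both libraries belong to 1 group. The count of members at a log2 ratio of 0.25 or more was 18 of 37 as reported, beside 5.89% of all genes. It was 12 to 22 under the other pseudocounts, TMM, size factors, FPKM, posterior mean TPM, release M4 and filters tried. The share of all genes there ran from 1.91% (pseudocount 5, 12 members) to 7.72% (pseudocount 0.1, 22 members). Fewer or more members entered in some settings, and the count was 20 of 39 unfiltered, 13 of 26 when 5 TPM was required and 18 of 35 in M4. It was 11 with spike-in scaling (5 lower, against 18 higher and 2 lower as reported), beside 2.64% of all genes higher and 17.4% lower, and 3 at a threshold of 0.5, beside 1.17% of all genes higher. Spike-in scaling moved the median of all genes to -0.13 and that of the members to 0.14. Members detected were 34 to 36 when either replicate was left out. Without a replicate, the leading shares ranged over 76.0% to 80.4% (Actc1), 83.2% to 85.8% (Actn2), 62.3% to 65.9% (Myh3), 71.3% to 71.5% (Myl1), 96.5% to 99.3% (Mylpf), 67.9% to 69.1% (Tnnc1), 87.3% to 87.5% (Tnni1), 79.7% to 80.4% (Tnnt1), 81.7% to 86.8% (Myom1) and 39.9% to 51.5% (Chrnb1), and the median leading transcript share over 65.8% to 70.2%. With posterior mean TPM, shares were 60.3% for Myh3, 70.8% for Myl1, 94.4% for Mylpf, 85.4% for Tnni1, 78.4% for Tnnt1 and 79.8% for Myom1, and the median leading transcript share 56.7%. Release M4 gave 71.8% for Myh3, 71.9% for Myl1, 88.2% for Tnni1, 69.6% for Myom1 and 87.0% for the leading transcript. Counts per kilobase of the longest coding transcript, an alternative chosen after seeing the data, gave 72.1% for Myh3, 68.7% for Myl1, 87.6% for Tnni1, 78.0% for Tnnt1 and 76.2% for Myom1. Adding paralogs outside the members gave 94.5% for Mylpf and 81.7% for Tnni1. All of these shares were above 50% except that of Chrnb1, which was 45.7% as reported and 43.1% to 45.9% in the other settings with both replicates. The cause of the differences was not tested. Depth limits Ckm, Myl2, Cav3, Myl3 and Tcap, with 1 to 29 counts in a library.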

Other observations

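Some genes of the sarcomere and of calcium handling outside the 39 members were as high as the members themselves. Tpm3, a tropomyosin used by slow fibres and by non-muscle cells, had 404 TPM in replicate 2 and 406 TPM in replicate 1. Atp2a2, the calcium pump of slow and cardiac muscle that other cells use too, had 40.2 TPM in replicate 2 against 40.3 TPM in replicate 1, and Srl, a calcium-binding protein of the muscle reticulum, had 24.95 against 23.15 TPM. Adult partners were low in both libraries. Scn4a, the sodium channel of adult muscle, had 0.04 against 0.07 TPM, Clcn1, its chloride channel, had 0.28 TPM in each, and Pvalb, the calcium buffer of fast fibres, had 0.36 against 0.38 TPM. Trim63, a muscle ubiquitin ligase, had 91 counts in replicate 2 and 29 in replicate 1, a scaled count ratio of 2.20 (exact 95% interval 1.43 to 3.46). Cox6a2, a muscle subunit of cytochrome oxidase, had 94 against 34 counts, a ratio of 1.94 (1.30 to 2.96). Tbx20, a regulator of heart and of some cranial motor neurons, had 81 counts in replicate 2 against 17 in replicate 1, opposite in direction to Nppa.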
